A study of Gallus gallus with 3 samples.

Results

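The cyclin and cyclin-dependent kinase (CDK) module of the chick spinal neural tube was described at 2 Hamburger-Hamilton stages, HH19 and HH14. Members were chosen by gene symbol alone: cyclins (CCN and a letter), every symbol starting with CDK, E2F and BTG genes, CDC25 genes, the pocket protein genes RB1, RBL1 and RBL2, the E2F partners TFDP1 and TFDP2, WEE1, CKS1B and CKS2. The rule found 73 of the 15916 genes in the table, each on its own row. It matched by letters, so that some members are no cell cycle genes, as said where each is described. The symbols CDK2, CDK4, CDK5, CDK5R1, CCNB1, CDC25B, CDKN1C and CKS2 were not matched and are not analysed here; 2699 rows carried no symbol.

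Polyadenylated RNA was sequenced from wild-type White Leghorn embryos, in 1 library at HH19 and 2 libraries at HH14, each made from the pooled neural tubes of about 25 embryos. The tissue was cut at brachial level and into the thoracic region, and most neighbouring tissue was removed by hand and with trypsin; the label of the HH19 library repeats the dissection text for HH14, and the growth protocol mentions microsurgery without saying for which eggs. Expression was given as TPM, a share of all transcripts corrected for gene length. Both HH14 libraries stand in 1 column, so each stage has a single value and no replicate error, and the stages could not be tested on these columns.

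Cyclins are the regulatory subunits that switch on CDKs at set points of the cell cycle. D-type cyclins with CDK4 or CDK6 and E-type cyclins with CDK2 inactivate the pocket proteins, which frees E2F factors to transcribe the genes of DNA synthesis, and A- and B-type cyclins with CDK1 drive entry into mitosis. CDK inhibitors and BTG proteins act against division, and in the neural tube progenitors divide at the lumen and leave the cycle as they become neurons.

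A gene was tested when its mean TPM over the 3 libraries, with the HH14 value counted for 2, was at least 1, and the call was a gap of 1 or more, that is 2-fold, between the stages in log2(TPM + 1). Differences given as log2 are on this scale, HH19 minus HH14, which understates the change of low genes, and folds are ratios of plain TPM. Of the 73 members 67 were tested. At HH19 1 of them was higher, CDK5R2, and 0 were lower, while over all 11097 tested genes 3.93% were higher and 1.38% lower. Higher genes were 74.0% of all called genes, or 58.2% after quantile normalization. The median log2 difference was 0.02 over the members and 0.05 over all tested genes. The middle of the distribution was about as wide, from -0.25 to 0.30 between the quartiles for the members and from -0.18 to 0.35 for all tested genes. A difference under 1.5-fold on the log2(TPM + 1) scale was seen in 62 of the 67 members (92.5%) and in 83.0% of all tested genes. Where the mean reached 10 TPM, the shares were 93.1% of 58 members and 88.8% of 7526 genes. The 5 members outside that band were CDK5R2, BTG2, CDK18, E2F2 and CCNI, each above its HH14 value on the deposited scale. After median-ratio scaling they were CDK5R2, BTG2 and CDK18 above and CCND1 and CDK1 below, and after quantile normalization CDK5R2, BTG2, CDK18 and CCNI above and CDKAL1 below. No member's spread over the embryos of a stage can be given, so differences below the call are given as values of these libraries.

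**Figure D1:**
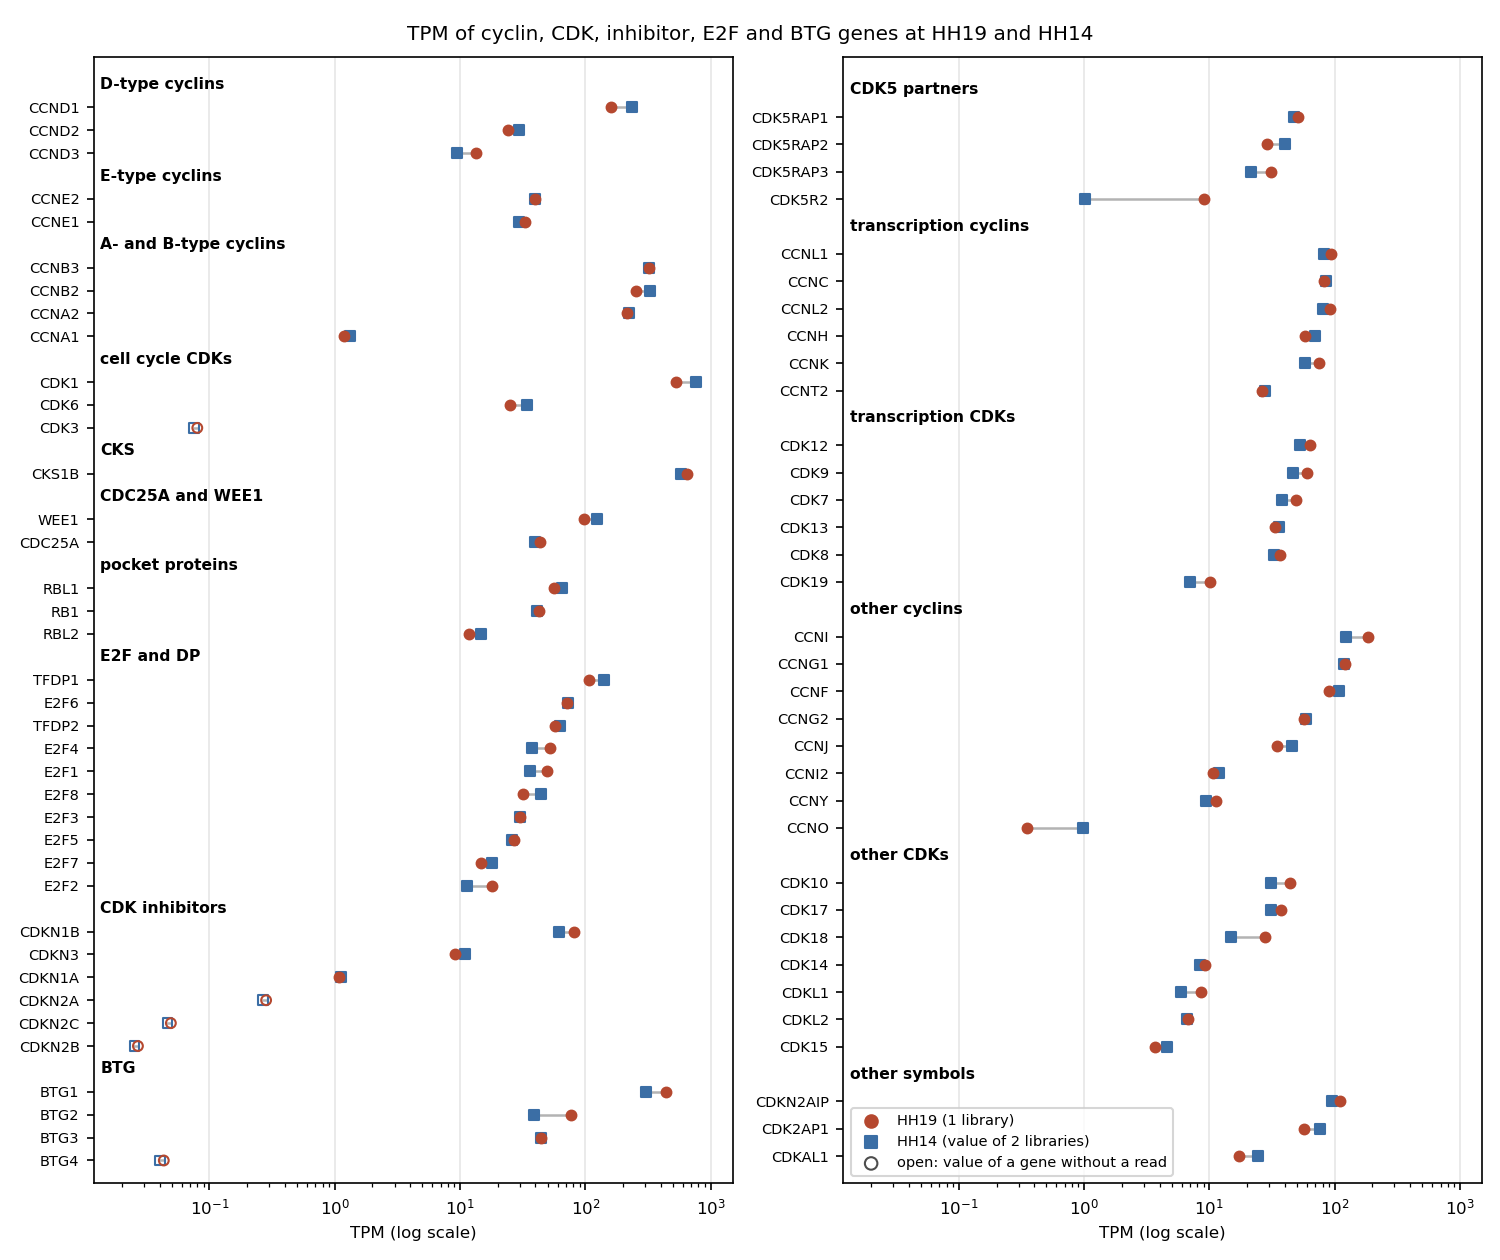
TPM of the members at HH19 (circles) and at HH14 (squares), on a log axis, grouped by role, with 1 member not shown; open symbols are values equal to those of a gene without a read. The pairs lie close together except for CDK5R2, at 9.14 TPM at HH19 and 1.01 TPM at HH14, and CCNO, at 0.353 and 0.980 TPM.

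Marker genes of several cell types differed in TPM between the stages. Of 12 matched neuronal differentiation genes 11 were called higher at HH19 (median log2 difference 1.68), as were 3.93% of all tested genes. The remaining gene lay below its HH14 value (log2 difference -0.21). The marker lists were chosen with earlier results of these data known, so such counts describe these libraries only. The summed level of the 12 neuronal genes was 1304 TPM at HH19 and 458 TPM at HH14. Of 8 neural progenitor genes 2 were higher, with 3853 TPM at HH19 and 2686 TPM at HH14, and the most abundant, the filament genes VIM and NES, had 1987 and 667 TPM at HH19, against 1455 and 366 TPM at HH14. Markers of other tissues and of the neural crest were summed too. They came to 70.4 TPM at HH19 and 49.2 TPM at HH14 for 7 paraxial mesoderm genes. Most of it was from PAX3 (61.7 and 45.1 TPM), which the dorsal neural tube also expresses. Without PAX3 the sums were 8.66 TPM at HH19 and 4.15 TPM at HH14, of which UNCX gave 4.39 and 0.498 TPM. UNCX, the 1 of 4 tested genes called higher, passed the filter only through HH19 and is also a factor of spinal interneurons. These sums therefore do not stand for mesoderm alone. For 6 surface ectoderm genes the sums were 53.7 TPM at HH19 and 91.9 TPM at HH14, of which EPCAM gave 47.6 and 74.2 TPM. Of the 5 tested genes in that list 2 were called lower. The sums were 3.42 TPM at HH19 and 15.4 TPM at HH14 for 5 endoderm and lateral plate genes. Of these 3 were tested and all 3 were called lower. HAND1 (0.0812 TPM at HH19, 4.41 TPM at HH14) and CDX2 (0.687 and 2.53 TPM) passed the filter only through HH14. GATA4 and GATA6, below 1 TPM at both stages, were not tested, so the filter itself shaped this count. For 6 neural crest genes the sums were 37.2 TPM at HH19 and 106 TPM at HH14. Among these 4 were called lower, while ETS1 was called higher, with 12.9 and 5.91 TPM. For each of these lists, the shares over all tested genes were 3.93% called higher and 1.38% called lower. For 6 blood and endothelial genes the sums were 43.2 TPM at HH19 and 34.4 TPM at HH14, of which HBG1 gave 23.6 and 15.2 TPM. Of the 4 tested genes in that list 3 lay above their HH14 value and 1, PECAM1, lay below. ESAM was called higher, with 3.52 and 0.945 TPM, and passed the filter only through HH19. Every marker had a read in at least 1 library. For HAND1, GATA3, GATA4 and GATA6 the smallest read number that fits at HH19, recovered as described below, was 0. With 0 reads their HH19 values are those of the added read. The HH14 libraries differed in some of these markers, with HAND1 at 8.21 TPM in A and 0.601 TPM in B, CDX2 at 3.42 and 1.64 TPM, and UNCX at 0.107 and 0.889 TPM, where A and B are the HH14 libraries told apart as described below. The part of these shifts in the results was not tested, and in bulk tissue fewer cells of a type and less RNA per cell cannot be told apart.

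CDK5R2 encodes p39, an activator of CDK5, the CDK that works in postmitotic neurons rather than in the division cycle. It had 9.14 TPM at HH19 and 1.01 TPM at HH14, a 9.05-fold difference (log2 difference 2.34), and moved up the order of all genes, to rank 7885 at HH19, against rank 10953 at HH14. For low genes such as this one, the steps that whole reads leave in the table allowed the HH14 libraries to be told apart. The HH14 libraries, here A and B, could not be matched to their replicate numbers. CDK5R2 had 9.14 TPM in the HH19 library, 0.340 TPM in library A of HH14 and 1.68 TPM in its library B. The smallest read numbers that give these values are 84 reads (95% Poisson interval 67.0 to 104) at HH19, 2 reads (0.242 to 7.22) in A and 18 reads (10.7 to 28.4) in B. The ratio of the columns fixes the reads, with the 1 read added to each, only up to a common factor. More reads would narrow these intervals, which cover counting error only.

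HH19 thus stood above each HH14 library for CDK5R2, 26.9-fold over A and 5.44-fold over B, and its interval lay clear of both. The HH14 libraries were themselves 4.94-fold apart, with B above A, which on the log2(TPM + 1) scale was a difference of 1.00. Of 769 tested genes with recovered values 4.03% were at least 2-fold higher in B than in A and 5.85% at least 2-fold lower. The same recovery gave 4 tested members, of which CDK5R2 was the member that reached 2-fold between the HH14 libraries. A limma test of HH19 over both HH14 libraries, run on these 769 genes, gave CDK5R2 a log2 difference of 2.42 ± 0.52 (SE) with a Benjamini-Hochberg adjusted p of 0.398. That test called 0 of the 769 genes (0%), with 64 higher (8.32%) and 10 lower (1.3%) at an unadjusted p below 0.05. With a single HH19 library, the spread is that between the HH14 libraries. limma draws the variance of each gene toward the trend of the 769 genes, so the SE is not from CDK5R2 alone. On simulated data the same test called no changed gene, so a miss of its threshold, here by CDK5R2, carries no information.

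**Figure D2:**
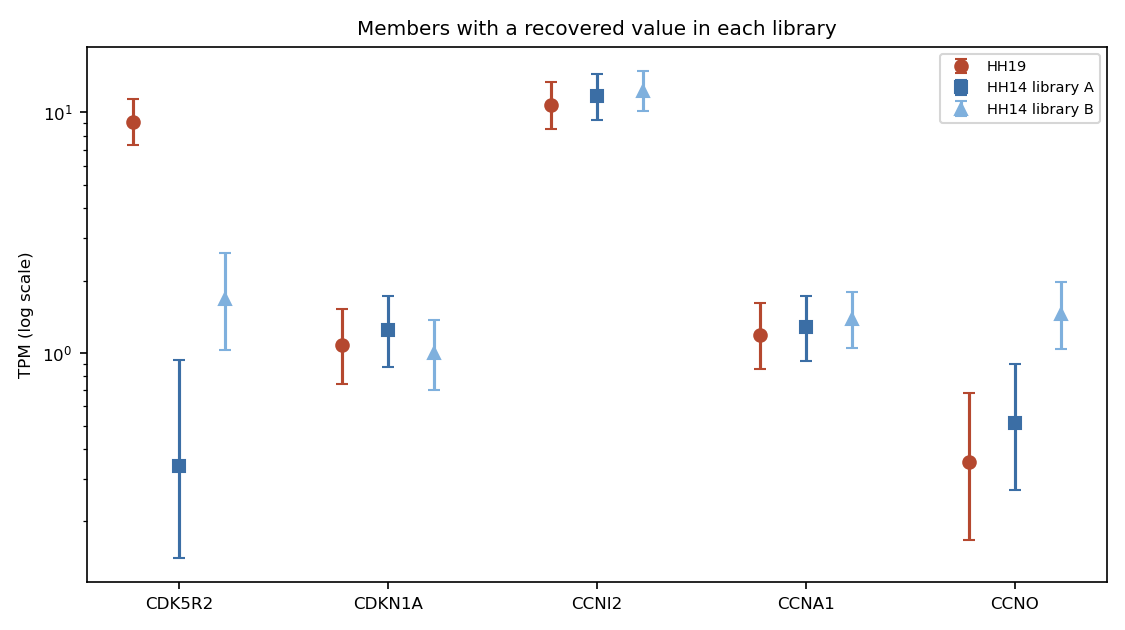
TPM on a log axis of the 5 members with reads whose value could be recovered in each library: HH19 (circles), HH14 library A (squares) and HH14 library B (triangles), with 95% Poisson intervals of the reads. CDK5R2 at HH19 (9.14 TPM) lies above both HH14 libraries, and CCNO in HH14 library B (1.45 TPM) lies above the other libraries.

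The other members named for CDK5 carry different roles. CDK5RAP3, an adapter of the UFM1 protein modification pathway in mammals, had 31.2 TPM at HH19 and 21.6 TPM at HH14. CDK5RAP2, a centrosome protein that anchors microtubule nucleation, had 28.7 TPM at HH19 and 40.4 TPM at HH14, 1.41-fold lower in TPM and below the call. CDK5RAP1, an RNA-modifying enzyme of mitochondria, had 51.2 TPM at HH19 and 47.5 TPM at HH14.

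Among the D-type cyclins, which couple growth signals to entry into the cycle, CCND1 was the main transcript at both stages. It had 159 TPM at HH19 and 236 TPM at HH14, a log2 difference of -0.57. CCND1 lay furthest below 0 of the 67 tested members on the deposited scale and after median-ratio scaling. After quantile normalization it was at -0.54, and CDKAL1 (-0.61), CDK5RAP2 (-0.56) and E2F8 (-0.56) were further below 0. CCND2 had 24.4 TPM at HH19 and 29.5 TPM at HH14, and CCND3 had 13.4 TPM at HH19 and 9.52 TPM at HH14. Summed, the D-type cyclins had 197 TPM at HH19 and 275 TPM at HH14. CCND1 made up 80.8% of that sum at HH19 and 85.8% at HH14, while the share of CCND3 was 6.81% at HH19 and 3.46% at HH14. CDK6, a kinase partner of these cyclins, had 25.3 TPM at HH19 and 34.2 TPM at HH14.

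The E-type cyclins, which act at the start of DNA synthesis, lay close to their HH14 values. CCNE1 had 32.9 TPM at HH19 and 29.4 TPM at HH14, and CCNE2 had 39.7 and 39.9 TPM. CDC25A, the phosphatase that removes inhibitory phosphates from CDKs, had 43.5 TPM at HH19 and 39.9 TPM at HH14, while WEE1, the kinase that adds such a phosphate, had 98.1 and 123 TPM.

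The mitotic members were among the most abundant of the set. CDK1, the kinase of mitotic entry, had 527 TPM at HH19 and 766 TPM at HH14, at rank 232 and rank 174 of all genes, and its log2 difference was -0.54. CKS1B, a small CDK-binding subunit, had 645 TPM at HH19 and 584 TPM at HH14 and ranked 193 and 214. At HH19 CKS1B therefore stood above CDK1 in TPM, and at HH14 CDK1 stood above CKS1B. CCNB3 had 323 TPM at HH19 and 322 TPM at HH14, CCNB2 had 253 and 327 TPM, and CCNA2 had 214 and 222 TPM. The partners of CDK1 were thus closer to their HH14 values than the kinase, with log2 differences of 0.0017, -0.37 and -0.05; that of CCNB3 turned below 0 after median-ratio scaling. CCNB3 made up 40.8% of the A- and B-type cyclin TPM at HH19 and 36.9% at HH14, and CCNB2 32.0% and 37.5%. The RefSeq gene table gives CCNB2 as a synonym of CCNB1, so which B-type cyclin of mammals that row stands for was not settled here. CCNA1, a cyclin of the mammalian germ line, was low, with 1.19 TPM at HH19, and 1.28 and 1.38 TPM in libraries A and B of HH14. Its intervals in the 3 libraries overlapped.

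**Figure D3:**
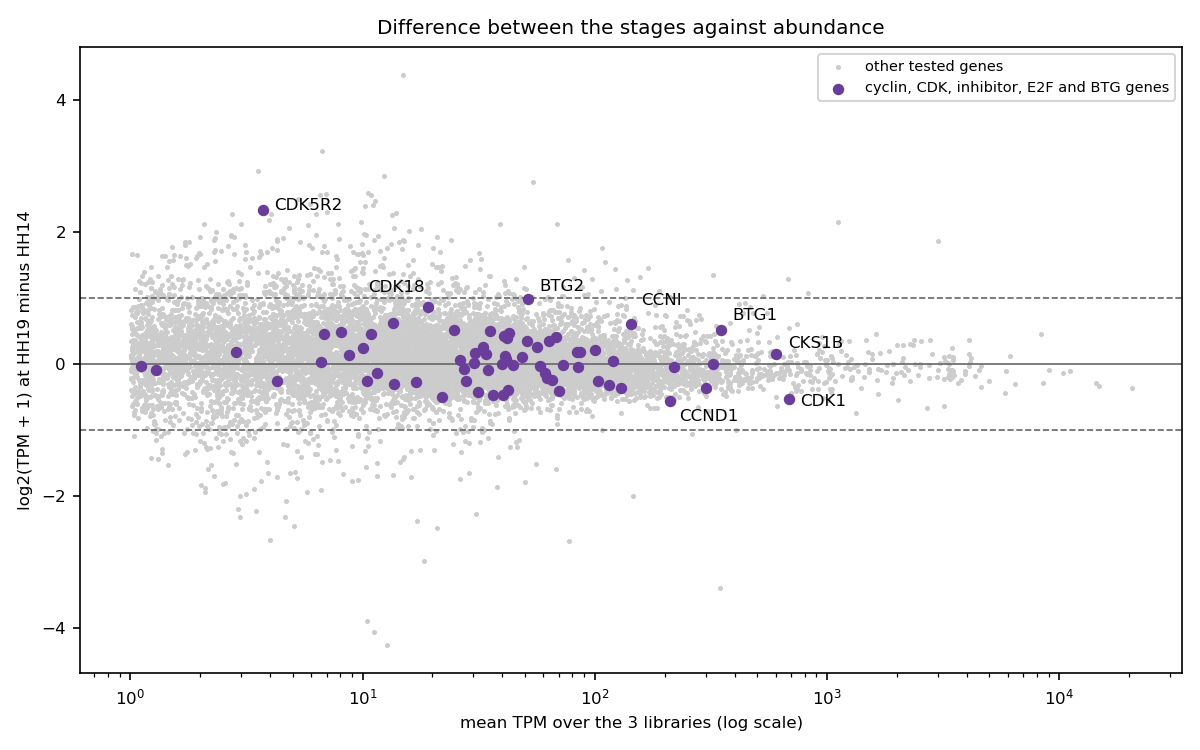
Difference in log2(TPM + 1) between HH19 and HH14 against mean TPM (log axis) for the 67 tested members (purple) and the other tested genes (grey); dashed lines mark 2-fold either way. CDK5R2 lies beyond the upper line at 2.34, BTG2 just under it at 0.98, and CDK1 and CCND1 lie at -0.54 and -0.57.

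Pocket proteins hold E2F factors in check. RB1, the retinoblastoma protein gene, had 42.9 TPM at HH19 and 41.0 TPM at HH14, RBL1 had 56.1 and 65.6 TPM, and RBL2 had 11.7 and 14.7 TPM. RBL1 was thus the most abundant pocket protein transcript at both stages. No E2F gene reached the call. E2F1, E2F2 and E2F3, the activators, had a summed level of 97.4 TPM at HH19 and 77.9 TPM at HH14. E2F2 had 18.0 TPM at HH19 and 11.4 TPM at HH14 (log2 difference 0.61), E2F1 had 49.2 and 36.4 TPM (0.42), and E2F3 had 30.2 and 30.1 TPM, which turned below its HH14 value after median-ratio scaling and after quantile normalization.

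E2F7 and E2F8, atypical repressors that act without a DP partner, had 46.5 TPM at HH19 and 62.8 TPM at HH14 in sum. E2F8 had 31.8 TPM at HH19 and 44.6 TPM at HH14 (log2 difference -0.48), and E2F7 had 14.8 and 18.1 TPM (-0.28). E2F4, which binds pocket proteins in resting cells, had 52.4 TPM at HH19 and 37.7 TPM at HH14. E2F5, of the same class, had 27.1 and 26.0 TPM and lay below its HH14 value under both other scalings. E2F6, a repressor that lacks a pocket protein binding site, had 71.72 TPM at HH19 and 73.05 TPM at HH14. Of the DP partners, TFDP1 had 108 TPM at HH19 and 140 TPM at HH14, and TFDP2 had 57.2 and 63.3 TPM. A DP gene, TFDP1, was the most abundant of this group at both stages.

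Genes of DNA synthesis that E2F factors are known to drive were read beside them. Of 19 matched genes 0 were called, and 15 lay below their HH14 value, as did 44.4% of all tested genes (median log2 difference -0.15 for the list and 0.05 for all). PCNA, the sliding clamp of the replication fork, had 1459 TPM at HH19 and 1739 TPM at HH14, and RRM2, a subunit of ribonucleotide reductase, had 528 and 569 TPM. Of 35 other cell cycle regulators outside the symbol rule 0 were called (median -0.03). Their log2 differences ran from -0.57 to 0.90, so some came near the call, and 32 were within 1.5-fold. Of all tested genes 3.93% were called higher and 1.38% lower, so 0 calls in lists this short are near that share. RBBP4, a histone-binding protein of the E2F repressor complex, had 748 TPM at HH19 and 740 TPM at HH14, and PLK1, a mitotic kinase, had 452 and 484 TPM.

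The genes that act against division were led by BTG1 in abundance and by BTG2 in difference. BTG2, an antiproliferative gene that in rodents marks progenitors about to make neurons, had 77.6 TPM at HH19 and 38.8 TPM at HH14. In plain TPM this was 2.0-fold, and its log2 difference of 0.98 fell just short of the call. BTG1 had 437 TPM at HH19 and 306 TPM at HH14 (log2 difference 0.51), which put it at rank 276 at HH19 and 424 at HH14. BTG3 had 44.1 TPM at HH19 and 44.6 TPM at HH14. The values of BTG1 and BTG2 summed to 515 TPM at HH19 and 345 TPM at HH14, alongside the larger sum of neuronal markers at HH19 given above; the part of neurons in this was not tested.

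CDKN1B, which encodes the CDK inhibitor p27, held most of the summed TPM of the 6 matched inhibitor members. CDKN1C was not matched by symbol, so its level beside CDKN1B is not known here. CDKN1B had 81.9 TPM at HH19 and 61.4 TPM at HH14 (log2 difference 0.41). CDKN1A, which encodes p21, was about as low at both stages, with 1.08 TPM at HH19, and 1.24 and 0.998 TPM in libraries A and B of HH14. Its 31, 34 and 35 reads, the smallest numbers that give these values, had overlapping intervals. CDKN3, a phosphatase that acts on CDKs, had 9.09 TPM at HH19 and 11.1 TPM at HH14.

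For 5 members the columns stood in the ratio of genes without a read in any library: CDKN2A, CDKN2B and CDKN2C, which encode INK4-class inhibitors and ARF in mammals, CDK3 and BTG4. Their deposited values, from 0.0252 TPM at HH14 for CDKN2B to 0.283 TPM at HH19 for CDKN2A, are then those of the 1 read added to each gene, though the ratio alone would be the same with equal reads in every library. A count of 0 reads allows up to 3 reads as a one-sided limit, which is 0.850 TPM for CDKN2A and 0.0806 TPM for CDKN2B at HH19. CDKN2A and CDKN2B are next to each other among protein-coding genes in the RefSeq table.

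**Figure D4:**
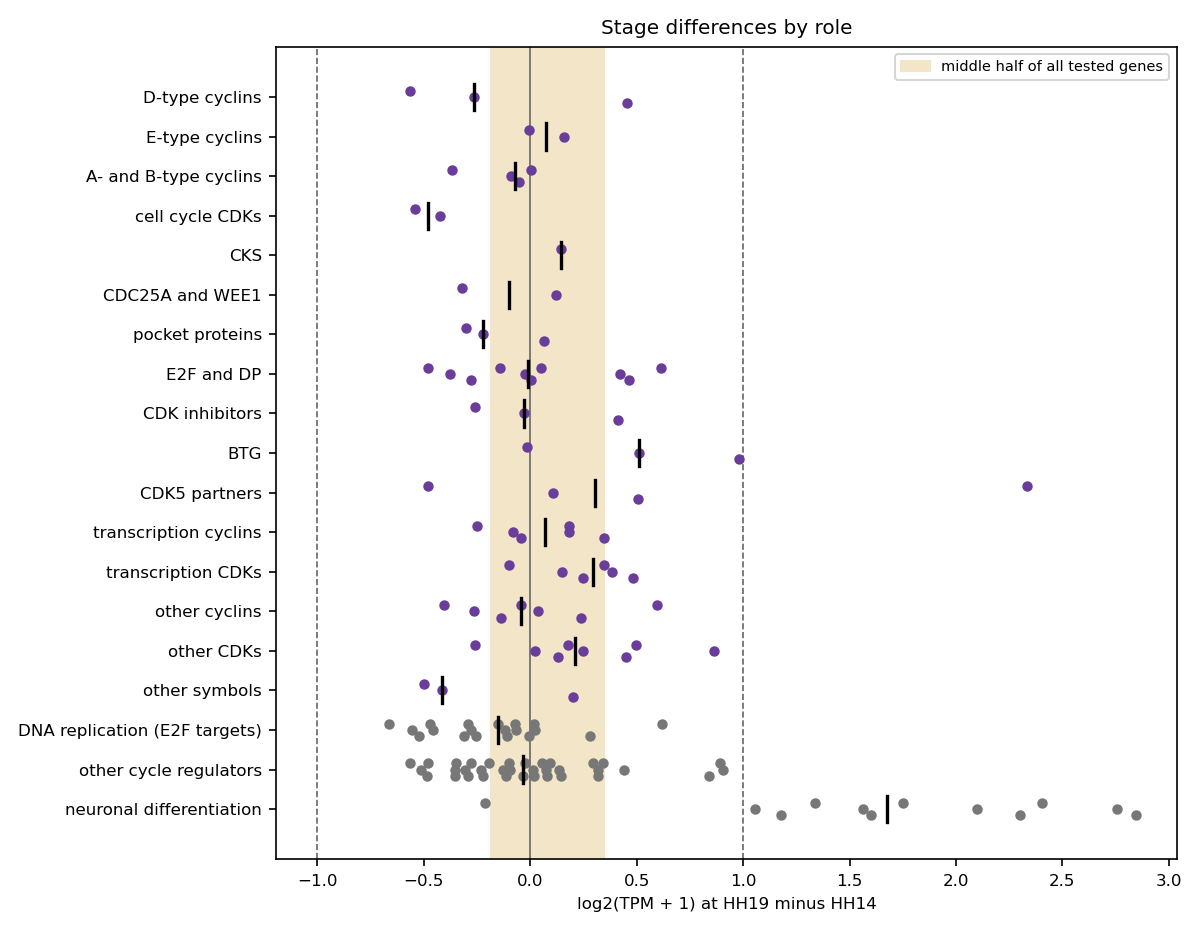
Difference in log2(TPM + 1) between HH19 and HH14 for each tested member by role (purple) and for 3 lists outside the symbol rule (grey); black bars are medians, the shaded band is the range between the quartiles of all tested genes and dashed lines mark 2-fold. CDK5R2 is the point beyond 2-fold among the members, and 11 of 12 neuronal differentiation genes lie beyond it.

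Members that serve transcription rather than the cycle also lay within 2-fold. Of 6 transcription CDKs 5 lay above their HH14 value, under the deposited scale and both other scalings, and 0 were called (median log2 difference 0.30); of all tested genes 55.6% lay above. CDK7, the kinase of TFIIH, which also activates cell cycle CDKs, had 49.5 TPM at HH19 and 37.8 TPM at HH14, and CDK9, the kinase of the elongation factor P-TEFb, had 59.7 and 46.8 TPM. CDK12, which phosphorylates elongating RNA polymerase, was the most abundant of them, with 63.2 TPM at HH19 and 53.1 TPM at HH14. CDK19, a Mediator kinase, had 10.2 and 7.01 TPM, and CDK8, its paralog, 36.5 and 32.8 TPM. CDK13 had 33.2 TPM at HH19 and 35.6 TPM at HH14.

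The cyclins of these kinases lay on both sides, 3 above and 3 below their HH14 values. CCNK, the cyclin of CDK12, had 74.3 TPM at HH19 and 58.2 TPM at HH14, and CCNH, the cyclin of CDK7, had 57.9 and 69.1 TPM. Cyclin and kinase of the TFIIH pair thus differed in opposite directions, each under 1.5-fold. CCNC, the cyclin of CDK8, had 82.9 TPM at HH19 and 85.5 TPM at HH14, and CCNT2, a cyclin of CDK9, had 26.4 and 27.9 TPM. CCNL1 and CCNL2, cyclins linked to splicing, had 93.5 and 91.1 TPM at HH19, against 82.2 and 80.1 TPM at HH14.

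Of the remaining CDK genes 7 of 8 lay above their HH14 values on the deposited scale, against 55.6% of all tested genes, CDKL2 falling below after median-ratio scaling and CDKL2 and CDK14 after quantile normalization. CDK18, a kinase of the PCTAIRE family, had 27.8 TPM at HH19 and 14.8 TPM at HH14, a 1.87-fold difference in TPM (log2 difference 0.86) just under the call. CDK17, of the same family, had 37.1 and 31.1 TPM. CDK10 had 44.3 TPM at HH19 and 31.1 TPM at HH14, and CDK14, a partner of CCNY at the cell membrane, had 9.29 and 8.41 TPM. CCNY itself had 11.3 TPM at HH19 and 9.46 TPM at HH14. CDK15 had 3.67 TPM at HH19 and 4.59 TPM at HH14. The CDK-like kinases CDKL1 and CDKL2 had 8.53 and 6.72 TPM at HH19, against 5.98 and 6.61 TPM at HH14.

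Among the other cyclins, CCNI was the most abundant, with 185 TPM at HH19 and 122 TPM at HH14 (log2 difference 0.59). CCNG1, a p53 target in mammals, had 122 TPM at HH19 and 118 TPM at HH14, and CCNG2 had 57.1 and 58.8 TPM. CCNF, a subunit of an SCF ubiquitin ligase that targets proteins late in the cycle, had 90.7 TPM at HH19 and 109 TPM at HH14. CCNJ had 34.5 TPM at HH19 and 46.0 TPM at HH14. CCNI2 had 10.8 TPM at HH19, and 11.6 and 12.3 TPM in libraries A and B of HH14, with overlapping intervals.

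CCNO, a cyclin of centriole amplification in multiciliated cells of mammals, was the member with the widest difference toward HH14 in plain TPM, and it was left out of the tested genes by its mean of 0.771 TPM. It had 0.353 TPM at HH19 and 0.980 TPM at HH14, a 2.78-fold difference. The recovered values were 0.353 TPM at HH19 (at least 7 reads, interval 2.81 to 14.4), 0.511 TPM in HH14 library A (10 reads, 4.80 to 18.4) and 1.45 TPM in HH14 library B (39 reads, 27.7 to 53.3). HH19 and library A overlapped within counting error, and library B stood 2.84-fold above A. The lower value at HH19 thus rests on library B.

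A few symbols start with CDK but were placed in none of the roles above. CDKAL1, a tRNA-modifying enzyme, had 17.1 TPM at HH19 and 24.6 TPM at HH14 (log2 difference -0.50). Its neighbour among protein-coding genes in the RefSeq table is E2F3, which lay at 30.2 TPM at HH19 and 30.1 TPM at HH14. CDK2AP1, a chromatin complex subunit named for binding CDK2, had 57.4 TPM at HH19 and 76.8 TPM at HH14, and CDKN2AIP, a binding partner of ARF in mammals, had 109 and 94.95 TPM.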

How the data were processed

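The authors deposited TPM per Ensembl gene in 1 table with 2 columns, 1 for HH19 and 1 for both HH14 libraries. Per the submitters' processing notes, FastQC, SAMtools, TopHat2 and DESeq2 were used with galGal4; what each did, how reads were counted and how the HH14 libraries were merged is not given in the sources used here. Column sums were 946462 TPM at HH19 and 957154 TPM at HH14, total reads are unknown, and no test of the stages could be run on single values. The members and lists were chosen with earlier results of these data known. Of the members 1 is not reported here but stays in all counts. Every other member could be named, and from each other list up to 4 called and the 2 most abundant genes.

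Low values are whole multiples of the value of 1 read, with 1 read added per gene and library. In 1426 genes without a read HH19 stood at 1.07 times HH14, and HH14 values step as the mean of 2 libraries, A giving 56.2% and B 43.8% of 1 read. HH19 thus had 1.05 times the depth of A and 0.822 times that of B. Whole reads in the 3 libraries were searched up to 400 HH19 reads, and a gene was kept where at most 0.003 chance solutions were expected, the value of 1 read did not pass 0.2 TPM and the mean was below 20 TPM. This recovered 4272 genes, of which 769 passed the mean of 1 TPM. limma with an intensity trend on log2(TPM + 1) was added after the data were seen; it was two-sided, and the labels do not say whether the HH14 pools shared eggs or days, so its p-values reflect the spread of these libraries alone. All steps were tested on simulated data, where recovered TPM were right in nearly all genes and read numbers in most, up to the common factor. There limma called 0 of 27 changed genes, whose changes were smaller than that of CDK5R2. No conclusion is therefore drawn from a miss of its threshold. The alternatives were pseudocounts of 0.1 and 5, other filters, median-ratio scaling, quantile normalization and each HH14 library alone. RefSeq names (bGalGal1.mat.broiler.GRCg7b) matched 70 of the 73 members by symbol and gave the order of genes. The software was limma 3.58.1 in R 4.3.3, and in Python 3.11.15 scipy 1.17.1, pandas 2.3.3 and numpy 2.4.6, with figures from matplotlib 3.10.9.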

Additional observations from a re-analysis of the deposited data

How the results depend on the processing

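CDK5R2 stayed the 1 member called higher, and 0 were lower, with pseudocounts of 0.1 and 5, no filter, median-ratio scaling, quantile normalization and against either HH14 library alone. With a mean TPM of at least 5 it was not tested and 0 members were higher. Its log2 difference was between 1.92 and 2.92 against the single HH14 libraries. The median of the members ranged from -0.05 (quantile normalization) to 0.03. Against library A and library B alone, where 4 tested members were recovered, it was -0.0815 and -0.0328. Over all genes the counts moved more. The pseudocount of 0.1 gave 651 higher and 279 lower genes, that of 5 gave 149 higher and 46 lower, a mean TPM of at least 5 gave 261 higher and 85 lower and quantile normalization 302 and 217, against 436 and 153 as reported. Among recovered genes 121 were higher and 44 lower against library A, and 68 and 11 against library B, with medians of 0.28 and 0.20. Only 769 genes could be tested there, which limits the counts; the cause of the shifted medians and of the difference between A and B was not tested. Of the 67 tested members 5 changed sign after median-ratio scaling and 4 after quantile normalization, each within 1.5-fold of its HH14 value. CDKN1A changed sign against library B alone. With a chance limit of 0.001 reads were recovered for 2 members, CCNO and CDK5R2, with 0.01 for 7, and with no limit on 1-read value and mean for 6. CDK5R2 kept the same reads in each. No member symbol stood on more than 1 row. No paired analysis was possible because HH19 has 1 library and the HH14 libraries share a column. TPM keeps no read total, so counting error is unknown for all but the recovered members.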
